A study of Mus musculus with 29 samples.

Results

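Interferon-stimulated genes and genes of class I antigen presentation were followed through white adipocyte differentiation with and without inhibition of KDM5. The members were 41 symbols, 32 interferon targets and 9 class I presentation genes, and those with a row in the deposited count table were used. There were 35 such genes among 11959 in the table, 27 interferon targets and 8 class I genes. Ifit3, Ifit3b, Oas1a, Rsad2, Cxcl10 and Psmb9 were not analysed here. No measured value entered the choice of members, but the list was drawn up with earlier results of these data known. 3T3-L1 cells are an established mouse preadipocyte line that is grown to confluence and then differentiated into fat cells by a hormonal medium given from day 0. All groups were 3T3-L1 cells. The 4 C70 groups received 10 µM KDM5-C70 (C70), a chemical inhibitor of the KDM5 histone demethylases, from day -2 to day 0, and the 4 vehicle groups received DMSO over the same days. RNA was collected at days 0, 1, 2 and 7, with 3 vehicle and 4 C70 samples at days 0, 1 and 2, and 4 samples of each at day 7, 29 in all. The inhibitor was thus present only before day 0, and the later samples were taken after its removal. The labels do not say whether replicates were separate cultures, so P values measure the spread between these samples.

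Total counts ranged from 16320275 to 24037170 per sample. Levels are given as CPM, counts relative to library size, scaled for library composition. Replicates differed by more than counting noise, and the common biological coefficient of variation was 0.0594. All 9 adipocyte markers on the list used were in the table, and their summed level rose from between 1291 and 1412 CPM at day 0 to between 24768 and 29418 CPM at day 7 in vehicle samples. All 7 preadipocyte and fibroblast markers were in the table, 2 of 11 macrophage and leukocyte markers (Cd68 and Cd14), and 0 of 5 endothelial markers. In a bulk sample, fewer cells of a type and less RNA per cell cannot be told apart. One library stood apart among the members: day 7 vehicle replicate 1 had a mean log2 level of the interferon targets of -0.04, relative to the median of all samples, against -0.58 to -0.46 in the other 3 day 7 vehicle samples. Over all genes its chi-square per degree of freedom against those samples was 39.8 to 46.7, and theirs among themselves 2.65 to 10.7. Counts of members called at day 7 are therefore given with and without it, while other day 7 values include it. Shares over all genes are from the fit to all libraries, and none is given for fits that leave a library out.

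Type I interferons are secreted by cells that sense foreign nucleic acid, and they act on a receptor whose kinases phosphorylate STAT proteins. STAT2 and IRF9 are parts of a complex that binds the promoters of interferon-stimulated genes, which encode RNA sensors, effectors that block viral replication and factors that feed back on the pathway. Class I presentation is the route by which peptides cut by the proteasome are carried into the endoplasmic reticulum and displayed by a heavy chain bound to beta-2 microglobulin. Many of its genes are also raised by interferons. In the absence of infection, cultured fibroblasts keep a basal expression of both gene groups.

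In vehicle samples nearly all members fell once differentiation began. At day 1, 26 of 27 interferon targets were called lower than at day 0 and 1 higher, and all 8 class I genes were called lower. A call required an adjusted P under 0.05 and a log2 fold change beyond 0.32 in either direction, and by this rule 27.9% of all genes were called lower and 26.2% higher. At day 2 the counts were again 26 lower and 1 higher for the interferon targets and 8 lower for class I, beside 32.4% lower and 33.4% higher over all genes. At day 7, 25 interferon targets were lower and 1 higher, and 7 class I genes were lower, beside 36.7% in each direction over all genes. The gene that rose at days 1 and 2 was Samhd1, which encodes an enzyme that destroys deoxynucleotides, with log2 changes of 1.93 and 0.75, and at day 7 it was lower by 0.57 on the log2 scale. The 3 comparisons share the day 0 vehicle samples. Without day 7 vehicle replicate 1, the members called at day 7 were again 26 interferon targets and 7 class I genes, with Ifi35 called in place of Ifi27.

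The depth of the fall differed among the interferon targets. Oasl2, an oligoadenylate synthetase-like effector, went from 223 ± 13 CPM (SD, n = 3) at day 0 to 0.842 ± 0.343 CPM at day 2, a log2 change of -8.01. Ifit1, which binds foreign RNA, changed by -7.89, and its relative Ifit2 by -7.35. Isg15, a ubiquitin-like protein that is attached to other proteins, changed by -7.01 and Xaf1, a regulator of cell death, by -7.02. These 5 genes, abundant in confluent preadipocytes, were thus close to the detection limit of the libraries at day 2. The smallest falls at day 2 were those of Ifi35 (-0.83), the transcription factor Irf1 (-0.95), Ifi27 (-1.11) and the ubiquitin ligase Trim25 (-1.20). By day 7 Ifi27 was above its day 0 level, with a log2 change of 0.34, and Ifi35 was not called at -0.27. The day 7 call of Ifi27 was lost without day 7 vehicle replicate 1 (0.18) or day 0 vehicle replicate 3 (0.31), and with quantile normalization (0.20), upper-quartile factors (0.28) or a stricter filter on low levels (0.30). Ifi35 was called lower without that day 7 library (-0.41) or with upper-quartile factors (-0.34).

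The median log2 change of the class I genes at day 2 was -1.65, beside -3.50 for the interferon targets, and the ranges of the groups overlapped. Psmb8, a catalytic subunit of the immunoproteasome, had the largest fall at -3.67, followed by Tap1 at -2.93, one chain of the transporter that carries peptides into the endoplasmic reticulum. B2m, the beta-2 microglobulin light chain, changed by -2.32. The heavy chain genes H2-D1 and H2-K1 changed by -1.47 and -1.29, and H2-K1 was not called at day 7 (log2 change within 0.01 of 0, adjusted P = 0.989), where replicate 1 read 201 CPM and the other replicates 148 to 158 CPM. H2-K1 and H2-D1 are related and polymorphic, and reads could be divided between them or lost to other class I genes.

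**Figure D1:**
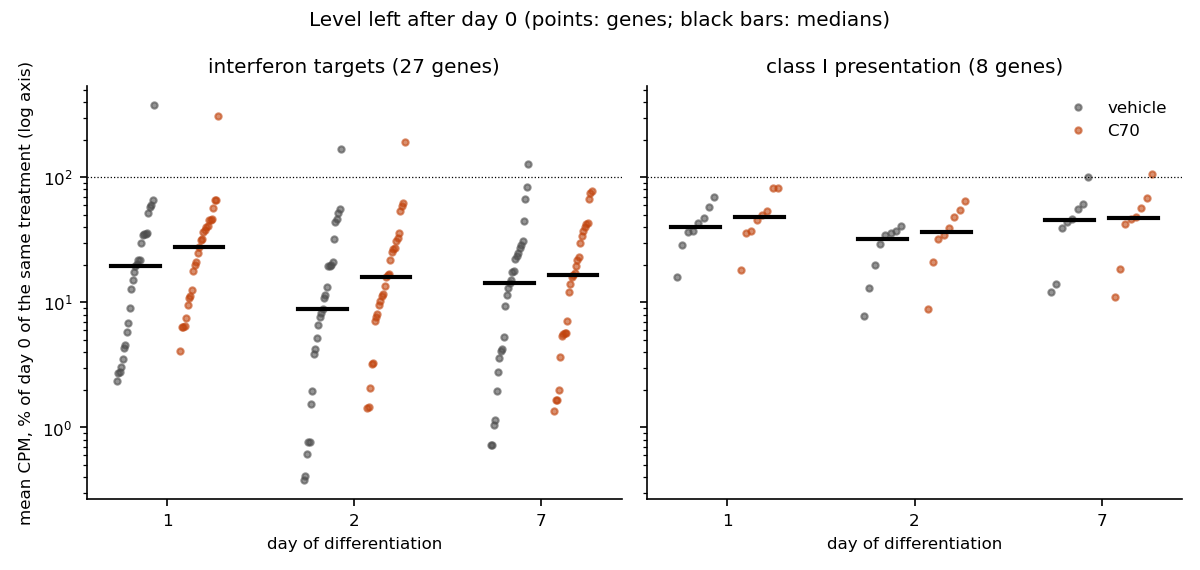
Mean CPM at days 1, 2 and 7 as a percent of the day 0 mean of the same treatment (log axis), with 1 point per gene, vehicle in grey, C70 in red and black bars for medians. The medians of the 27 interferon targets at day 2 were 8.85% in vehicle and 16% in C70 samples, and those of the 8 class I genes 31.9% and 36.6%.

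Relative to the day 0 level of the same treatment, the median interferon target kept 19.7%, 8.85% and 14.2% of its level in vehicle samples at days 1, 2 and 7. In C70 samples it kept 27.6%, 16% and 16.7%. The median class I gene kept 40.2%, 31.9% and 45.3% in vehicle and 47.8%, 36.6% and 47.6% in C70 samples. The medians thus stood below 100% at every later day in both treatments, and in both they were lowest at day 2.

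At day 0, at the end of the exposure to C70, several interferon targets were lower than in vehicle samples. Of 27 interferon targets, 7 were called lower and 1 higher, beside 3.09% called lower and 5.89% called higher over all genes. The median log2 fold change of the targets was -0.15, that of all genes was within 0.01 of 0, and 24 of the 27 lay below 0. With quantile normalization 2 targets were called lower and 1 higher. None of the 8 class I genes was called by edgeR, DESeq2 or limma. At an unadjusted P under 0.05, 3 class I genes were higher and 1 lower, and the median of the class I genes was 0.14. No share over all genes at an unadjusted P is given for any day, so such counts cannot be set against one. H2-D1 was called without vehicle replicate 1 of day 0 (log2 fold change 0.33, against 0.24 with it).

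Class I genes at day 0 are given for comparison. B2m read 1745, 1592 and 1589.8 CPM with vehicle and 1890.2, 1844, 1764 and 1896 CPM with C70 (log2 fold change 0.17). H2-K1 read 183, 159 and 154 CPM with vehicle and 198, 194, 166 and 182 CPM with C70 (0.16). Every C70 sample of B2m lay above every vehicle sample, and those of H2-K1 overlapped the vehicle samples. Tap1 read 47.5, 50.3 and 47.1 CPM with vehicle and 50, 59.2, 48 and 51.1 CPM with C70 (0.11). Psmb8 read 13.6, 12.6 and 12.7 CPM with vehicle and 18.5, 16.2, 14.2 and 13.8 CPM with C70 (0.27). The Tap1 groups overlapped and the Psmb8 groups did not.

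Ifit1 (chromosome 19, 34640871 to 34650009, GRCm38) had the lowest value at day 0 relative to vehicle. It stood at 184, 168 and 158 CPM in the vehicle samples and at 82.4, 102, 72.3 and 90.3 CPM with C70. The groups did not overlap, the log2 fold change was -0.97 ± 0.193 (SE) and adjusted P = 0.000429. DESeq2 (adjusted P = 0.213) and limma (0.161) did not call it. For Ifit2, a related gene on the same chromosome (34550694 to 34576419), the vehicle samples read 58.3, 62.3 and 60.4 CPM and the C70 samples 36.5, 40, 37.4 and 37.5 CPM. Every C70 sample was below every vehicle sample (log2 fold change -0.67 ± 0.0965, adjusted P = 5.27e-06), and the call was lost only with quantile normalization (0.0569).

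The other targets that were lower at day 0 were of several roles. Gbp2 encodes an interferon-induced GTPase, and its 3 vehicle samples (39, 38.6 and 37.9 CPM) lay above its 4 C70 samples (27.5, 28.1, 26.5 and 25.3 CPM). Its log2 fold change was -0.52 ± 0.0985 with adjusted P = 0.000244, which quantile normalization raised to 0.0549. Parp12, of the ADP-ribosyltransferase family, was lower by 0.46 on the log2 scale (adjusted P = 1.9e-08). Isg15 read 106, 93.5 and 84.2 CPM in vehicle and 76.7, 69.1, 60.5 and 65.9 CPM in C70 samples. Its groups did not overlap (log2 fold change -0.47 ± 0.106, adjusted P = 0.00151), although DESeq2 (0.13) and limma (0.283) did not call it. Oasl2 had a log2 fold change of -0.44 and adjusted P = 0.023. Its call was lost without vehicle replicate 1 (0.0924), vehicle replicate 3 (0.0784) or C70 replicate 3 (0.0847) of day 0, and with DESeq2 (0.382) or limma (0.395).

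Stat2, the STAT protein specific to type I and type III interferon signalling, read 222, 212 and 217 CPM with vehicle and 168, 189.7, 157 and 172 CPM with C70 at day 0. The C70 samples were all lower (log2 fold change -0.34 ± 0.0804, adjusted P = 0.00279). The fold change slipped under the threshold without C70 replicate 3 (-0.30) or vehicle replicate 1 (-0.32). Irf9, its partner, was not called at 0.11, and neither was Irf7, the amplifier of the interferon response. Irf7 read 53.1, 46.9 and 46.3 CPM with vehicle and 50.3, 52.1, 41.3 and 45.1 CPM with C70, and the groups overlapped. The RNA sensors Ddx58, Ifih1 and Dhx58 had log2 fold changes of -0.06, -0.14 and -0.03, none called.

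Ifi27, a small protein of mitochondrial and nuclear membranes, went the other way. It read 120.5, 131 and 117 CPM in vehicle samples and 244, 221, 233 and 233 CPM in C70 samples at day 0. It was the only target called higher on that day, by 0.92 ± 0.108 on the log2 scale (adjusted P = 1.65e-07).

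At day 1, a day after the inhibitor was removed, no interferon target was called lower and 13 of 27 were called higher. Over all genes 13.6% were called higher and 7.8% lower. At an unadjusted P under 0.05, 16 targets were higher and 2 lower, namely Samhd1 and Irf1. By adjusted P alone the counts were also 16 and 2, beside 2514 and 2351 of the 11959 genes. Samhd1 (log2 fold change -0.30) was called lower without day 1 vehicle replicate 1 or 2 (-0.33 each) and with quantile normalization (-0.34). The calls fell on the sensors Dhx58 and Ifih1, the transcription factors Irf7, Irf9 and Stat2, the effectors Ifit2, Oasl2, Gbp2 and the RNA editing enzyme Adar, the ISG15 protease Usp18, and Ifi44, Ifi27 and Rtp4. The median log2 fold change was 0.35. None of the 4 ADP-ribosylation genes (Parp9, Parp12, Parp14 and Dtx3l) was called, and their values lay between -0.15 and -0.05. Of 8 class I genes, 4 were called higher and 0 lower, with a median of 0.46 and 1 lower at an unadjusted P under 0.05.

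Ifi44 (chromosome 3, 151730922 to 151749960), an interferon-induced gene of uncertain molecular role, differed most. It read 9.08, 8.59 and 8.01 CPM in vehicle samples at day 1 and 39.9, 33.2, 31.3 and 34 CPM in C70 samples. All C70 samples were above all vehicle samples, with a fold change of 4.04 and a log2 fold change of 2.01 ± 0.149 (adjusted P = 3.54e-12). At day 0 the same gene had overlapped between treatments, at 101, 88.3 and 93.9 CPM with vehicle and 93.9, 86.2, 71.7 and 87.7 CPM with C70. Ifit2, lower with C70 at day 0, was higher at day 1, with 1.96, 1.88 and 1.08 CPM in vehicle and 4.93, 3.84, 2.58 and 3.21 CPM in C70 samples. Its log2 fold change was 1.15 ± 0.212 (adjusted P = 5.71e-05), and the groups did not overlap.

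Gbp2 and Stat2 had also changed side. Gbp2 read 1.69, 1.88 and 1.7 CPM with vehicle and 3.39, 2.95, 2.93 and 2.82 CPM with C70 (log2 fold change 0.78 ± 0.208, adjusted P = 0.00311). Stat2 read 53.3, 46.4 and 41.5 CPM with vehicle and 71.6, 73.3, 60.7 and 68.2 CPM with C70 (0.54 ± 0.0891, adjusted P = 1.25e-05). In neither gene did the groups overlap at day 1. Irf7 read 4.33, 3.33 and 2.36 CPM with vehicle and 6.22, 4.77, 4.92 and 4.57 CPM with C70. Although these groups were apart too (log2 fold change 0.61 ± 0.176, adjusted P = 0.00611), leaving out vehicle replicate 3 ended the call (0.077).

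That library mattered for other targets. Without day 1 vehicle replicate 3, the lowest of its group in the mean level of the targets, 7 rather than 13 were called, the calls of Ifih1, Irf7, Oasl2, Usp18, Ifi27 and Rtp4 being lost. Their log2 fold changes were then 0.29, 0.41, 0.39, 0.57, 0.31 and 0.59, against 0.35, 0.61, 0.64, 0.73, 0.39 and 0.82 with it. Without C70 replicate 1 of day 1, Oasl2 (0.39), Usp18 (0.40) and Ifih1 (0.28) were not called. Oasl2 at day 1 was also lost without C70 replicate 2 (adjusted P = 0.0512) or vehicle replicate 2 (0.0587), and with DESeq2 (0.116) and limma (0.119). Isg15 was not called at day 1. Its vehicle samples read 2.46, 2.44 and 1.74 CPM and its C70 samples 3.85, 2.9, 2.4 and 2 CPM, which overlapped (log2 fold change 0.33, adjusted P = 0.316).

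**Figure D2:**
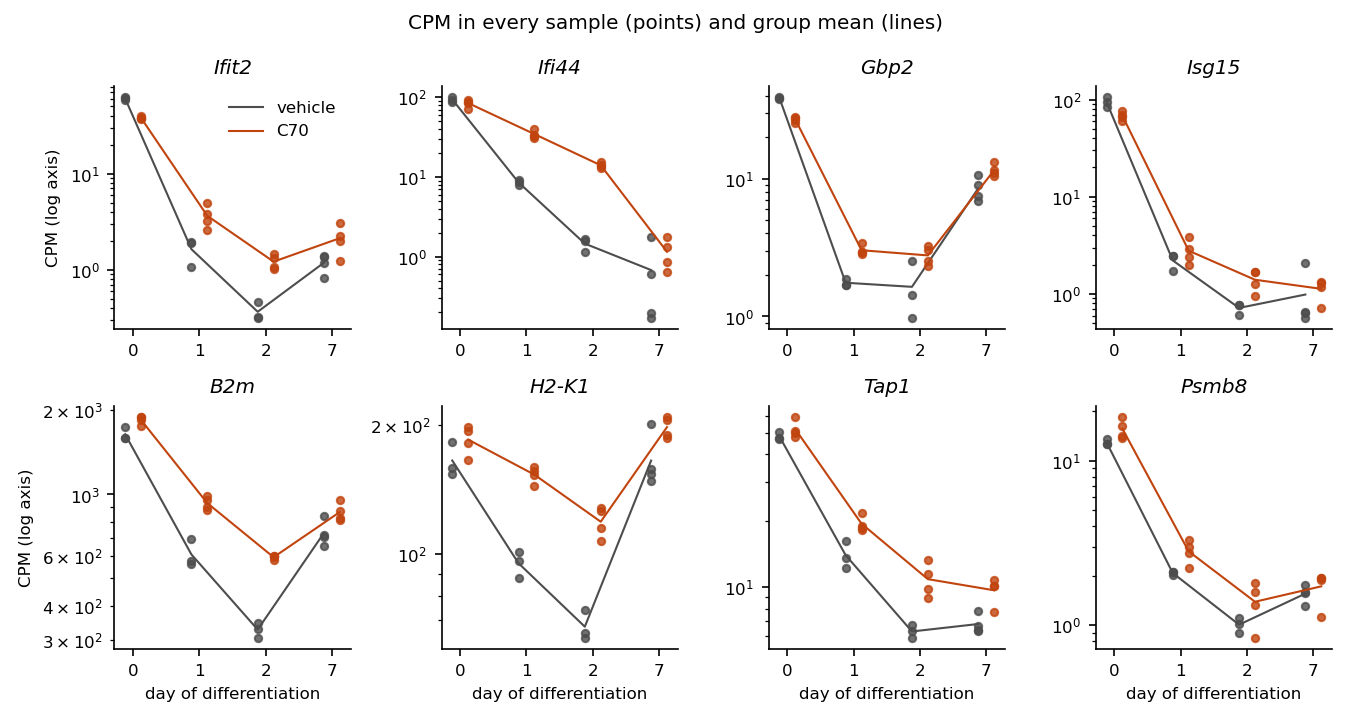
CPM of 8 members in every sample (log axis) against day, with vehicle in grey, C70 in red and lines through the group means. At day 2 the C70 samples of Ifi44 lay between 12.9 and 15.3 CPM and the vehicle samples between 1.13 and 1.68 CPM, while the Psmb8 groups overlapped.

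The class I genes called at day 1 were the display molecules and Tap1, which had fallen from day 0 in both treatments and stood higher with C70 than with vehicle. H2-K1 (chromosome 17, 33996017 to 34000347) read 101, 88 and 96.6 CPM in vehicle samples and 156, 153, 144 and 159.8 CPM in C70 samples. B2m (chromosome 2, 122147686 to 122153083), the most abundant member per kilobase of exon, read 690, 563 and 576 CPM with vehicle and 984, 958, 879 and 903 CPM with C70. In both genes every C70 sample exceeded every vehicle sample, by log2 fold changes of 0.69 ± 0.0875 (adjusted P = 1.86e-07) and 0.61 ± 0.0724 (5.18e-08). H2-D1 differed by 0.49 ± 0.0691 (1.16e-06). Tap1 read 16.2, 12.2 and 13.5 CPM with vehicle and 18.6, 21.8, 18.2 and 19 CPM with C70, without overlap (0.47 ± 0.11, adjusted P = 0.000833). Psmb8 read 2.1, 2.11 and 2.03 CPM with vehicle and 2.98, 3.3, 2.75 and 2.24 CPM with C70. The Psmb8 groups did not overlap at day 1, but with 43 to 67 reads in each library its adjusted P was 0.0521 and it was not called. It was called without C70 replicate 4 of day 1 (0.0224) and with a block on replicate number (0.0217). Libraries of other days also moved it over the threshold through the shared variance, when C70 replicates 1 and 4 of day 0, 2 and 3 of day 2 or 3 of day 7, or vehicle replicate 1 of day 7, were left out (0.0368 to 0.0496).

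Day 2 had the largest number of members called. Of 27 interferon targets, 18 were higher and 0 lower in C70 samples, beside 16.9% higher and 13.6% lower over all genes, and 0 were lower at an unadjusted P under 0.05. DESeq2 called 17 higher and 0 lower, limma 18 and 0, and quantile normalization 15 and 1. The median log2 fold change of the targets was 0.55 and that of all genes again within 0.01 of 0. All 3 sensors were called, 2 of 4 transcription factors, 5 of 8 effectors, 2 of 3 genes of the ISG15 system and 2 of 4 ADP-ribosylation genes. Of the other targets, 4 of 5 were called. Among class I genes 4 of 8 were called higher and 0 lower, none was lower at an unadjusted P under 0.05 or with DESeq2 or limma, and all 8 values lay above 0 with a median of 0.63.

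Ifi44 was again the member that differed most. Vehicle samples read 1.57, 1.68 and 1.13 CPM and C70 samples 13.8, 14.2, 12.9 and 15.3 CPM at day 2. The fold change was 9.48, with a log2 value of 3.25 ± 0.227 (adjusted P = 4.03e-13), and no samples overlapped. Ifi44 thus stood at 1.55% of its day 0 level in vehicle samples and at 16.6% in C70 samples. Xaf1 read 0.27, 0.287 and 0.409 CPM with vehicle, from 6 to 8 reads in each library, and 0.48, 1.52, 1.56 and 1.02 CPM with C70. Its groups were apart (log2 fold change 1.81 ± 0.562, adjusted P = 0.00798), on few reads. Rtp4, a chaperone of membrane receptors, had a log2 fold change of 1.75 (adjusted P = 1.96e-05), Dhx58 of 1.29 (1.43e-06) and Bst2, the tetherin that holds virions at the cell surface, of 0.98 (1.61e-08).

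The 6 targets that had been lower at day 0 and were higher at day 2 were Gbp2, Ifit2, Isg15, Oasl2, Parp12 and Stat2. Ifit2 read 0.315, 0.327 and 0.46 CPM with vehicle and 1.01, 1.46, 1.32 and 1.08 CPM with C70 at day 2. The groups were apart, at a log2 fold change of 1.72 ± 0.379 (adjusted P = 0.000328), although each vehicle library held only 7 to 9 reads. Stat2 read 30, 28 and 27.9 CPM with vehicle and 41.7, 42.6, 48.8 and 51.4 CPM with C70, again with no overlap (0.69 ± 0.0949, adjusted P = 3.99e-07). Isg15 read 0.765, 0.778 and 0.614 CPM with vehicle and 1.28, 0.956, 1.68 and 1.69 CPM with C70. Though the Isg15 groups did not overlap, adjusted P was 0.0385 (log2 fold change 0.95 ± 0.38).

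These calls were not equally firm. Isg15 at day 2 lost its call without any of vehicle replicates 1, 2 and 3 (adjusted P = 0.0701, 0.0688 and 0.102) or C70 replicates 3 and 4 (0.0878 and 0.104). Without vehicle replicate 3 of day 2, Oasl2 (adjusted P = 0.0531), Gbp2 (0.0593) and Ifih1 (0.0565) were not called. With quantile normalization, Isg15 (adjusted P = 0.0552) and Ifih1 (log2 fold change 0.26) were not called at day 2. Gbp2 itself overlapped on that day, at 2.52, 1.43 and 0.972 CPM with vehicle and 2.51, 3.04, 3.23 and 2.31 CPM with C70 (log2 fold change 0.73 ± 0.215, adjusted P = 0.0055). Parp12 was at the threshold, with a log2 fold change of 0.32. It went under that threshold without C70 replicate 1 (0.32) or 3 (0.30) or vehicle replicate 1 (0.31), and with DESeq2 (0.31). Parp12 was also under it with RLE size factors (0.31) and quantile normalization (0.31). Ifi27 (0.35) was not called without C70 replicate 4 (0.26, adjusted P = 0.0653). The log2 fold changes of the remaining called targets were 0.55 for Ddx58, 0.68 for Irf9, 0.54 for Adar, 0.40 for Trim25 and 0.65 for Parp14.

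Some targets did not follow the others at day 2. Irf7 read 3.91, 3.77 and 4.25 CPM with vehicle and 2.56, 3.66, 2.93 and 4.2 CPM with C70, so that the groups overlapped (log2 fold change -0.24, adjusted P = 0.29), although quantile normalization called it lower (-0.43, 0.0207). Usp18 was also not called at day 2, at -0.18, after its call at day 1. Ifit1 had a log2 fold change of 0.84 with a standard error of 0.761, and it was called only when each day was fitted alone (adjusted P = 0.0408). Irf1, Eif2ak2 (the kinase that halts translation on double-stranded RNA), Samhd1, Parp9, Dtx3l and Ifi35 were called in C70 samples on no day, and at day 2 their values lay between -0.09 and 0.19. Parp9 and Dtx3l overlap in antisense. The counting program and its strand setting are not given in the sources used here, so reads of these genes may be shared. Other members with an overlapping antisense gene were Irf1, Irf7, Dhx58, Eif2ak2, Adar, Gbp2, Usp18, Ifi35, Rtp4, Psmb8, Psmb10, Tap1, Tap2, Tapbp and B2m. Irf9, Parp14, Rtp4 and Tapbp overlap a gene on their own strand.

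In the class I group, B2m stood at 347, 331 and 306 CPM in vehicle samples and 582, 599.8, 604 and 598 CPM in C70 samples at day 2. The groups were far apart, with a log2 fold change of 0.86 ± 0.0733 (adjusted P = 3.17e-11). H2-D1 (chromosome 17, 35262730 to 35267499) read 94.3, 84 and 86.4 CPM with vehicle and 153, 149, 164 and 165 CPM with C70 (0.84 ± 0.0713, 2.88e-11). H2-K1 read 74.1, 65.3 and 63.7 CPM with vehicle and 115, 107, 128 and 126 CPM with C70 (0.81 ± 0.0894, 5.69e-09). In the light chain and both heavy chains, every C70 sample lay above every vehicle sample. Tap1 read 6.3, 6.71 and 5.88 CPM with vehicle and 8.91, 9.79, 11.5 and 13.3 CPM with C70, also without overlap (0.78 ± 0.133, adjusted P = 1.04e-05).

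Of the remaining class I genes, none was called at day 2. Tap2, the partner of Tap1, had a log2 fold change of 0.30 (adjusted P = 0.0103), under the fold threshold, which it passed without C70 replicate 1 (0.32) or vehicle replicate 2 (0.34). Tapbp, the tapasin that bridges the transporter and the heavy chain, stood at 0.06 (0.279) and the immunoproteasome subunit Psmb10 at 0.11 (0.401). Psmb8 read 0.9, 1.11 and 1.02 CPM with vehicle and 1.6, 1.8, 0.838 and 1.33 CPM with C70. Its groups overlapped through C70 replicate 3, and it was not called at 0.47 (0.104) but was called without that replicate, at 0.63 (0.0239). The block on replicate number also called it, at 0.51 (0.0492).

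**Figure D3:**
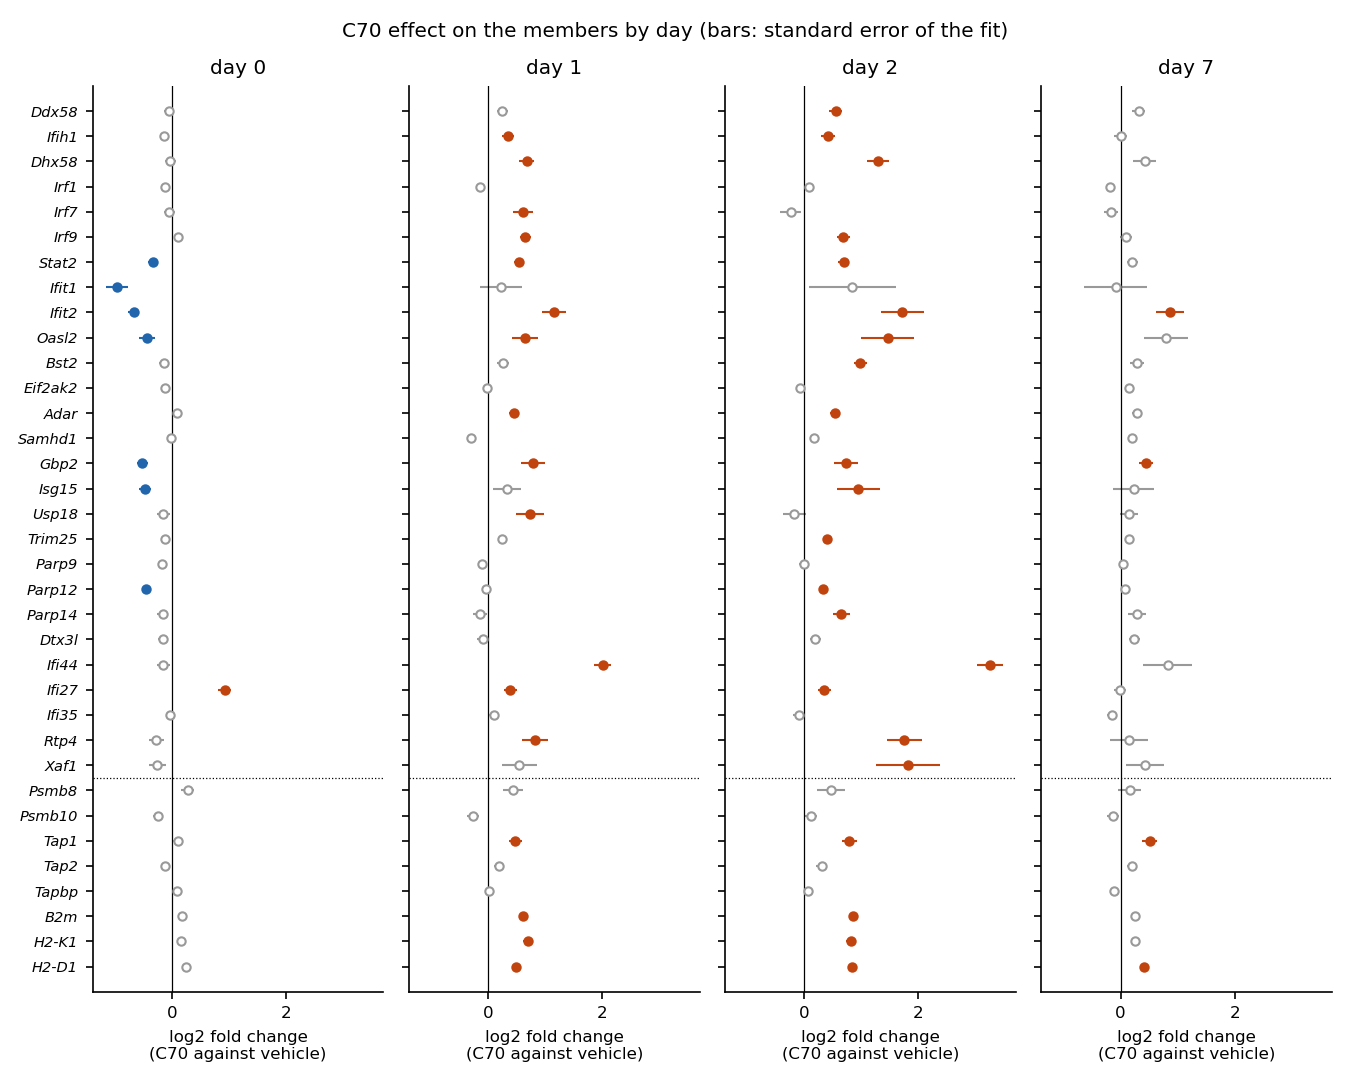
Log2 fold change of C70 against vehicle with its standard error for 35 members at 4 days, interferon targets above the dotted line and class I genes below. Filled points were called (red higher, blue lower) and open points were not. At day 0 there were 7 blue points, at day 2 there were 22 red points and 0 blue, and the largest value was 3.25 for Ifi44.

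At day 7 few members were called. Of 27 interferon targets, 2 were called higher and 0 lower, beside 14.3% and 4.85% called over all genes. At an unadjusted P under 0.05, for which no share over all genes is given, 12 targets were higher and 1 lower. By adjusted P alone, 8 targets were higher and 1 lower, beside 2667 and 2252 of the 11959 genes. DESeq2 called 4 higher and 0 lower, and limma 5 and 0. The median log2 fold change was 0.20. Of 8 class I genes 2 were called higher and 0 lower by edgeR, DESeq2 and limma alike, 1 was lower at an unadjusted P under 0.05, and the median was 0.22.

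Ifit2 read 1.4, 1.35, 1.18 and 0.822 CPM in day 7 vehicle samples and 1.98, 1.24, 2.26 and 3.06 CPM in C70 samples. One C70 sample lay among the vehicle samples, the log2 fold change was 0.86 ± 0.246 (adjusted P = 0.00553), and without C70 replicate 4 it was 0.63 (0.0538). Gbp2 read 10.7, 7.49, 8.92 and 6.85 CPM with vehicle and 11.6, 10.9, 13.1 and 10.4 CPM with C70. Its highest vehicle sample exceeded its lowest C70 sample (log2 fold change 0.44 ± 0.12, adjusted P = 0.00387). Both calls were lost with quantile normalization (adjusted P = 0.105 and 0.183). Tap1 read 7.8, 6.42, 6.32 and 6.69 CPM with vehicle and 7.72, 10.1, 10.1 and 10.8 CPM with C70, with a slight overlap (0.51 ± 0.128, adjusted P = 0.00194). H2-D1 read 171, 133, 147 and 146 CPM with vehicle and 186, 206, 202 and 199 CPM with C70 and did not overlap (0.42 ± 0.0641, adjusted P = 4.69e-06).

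The other members of the fixed set were not called at day 7. B2m read 840.3, 651, 715 and 706 CPM with vehicle and 824, 953, 876 and 809 CPM with C70, and H2-K1 201, 148, 154 and 158 CPM with vehicle and 187, 209, 206 and 189.5 CPM with C70. In both, vehicle replicate 1 lay among the C70 samples and the other 3 vehicle samples below them, at log2 fold changes of 0.25 and 0.26. Stat2 (0.21) read 29.3, 22.8, 21.8 and 26.1 CPM with vehicle and 28.2, 26.3, 27.8 and 32.5 CPM with C70. Isg15 (0.23) read 2.09, 0.564, 0.637 and 0.658 CPM with vehicle and 1.18, 0.71, 1.31 and 1.32 CPM with C70. In Stat2 and Isg15 too, vehicle replicate 1 was the highest of its group. Irf7 read 13.3, 9.92, 11.3 and 11.8 CPM with vehicle and 9.49, 9.82, 9.76 and 12 CPM with C70 (-0.17), and Psmb8 1.75, 1.58, 1.32 and 1.59 CPM with vehicle and 1.88, 1.95, 1.13 and 1.95 CPM with C70 (0.16). Both overlapped.

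Leaving out day 7 vehicle replicate 1 raised the count of called interferon targets from 2 to 9, and that of class I genes from 2 to 4. The share over all genes without this library is not given here, so these counts cannot be set against it. The targets then called were Gbp2 and Ifit2 with Ddx58 (log2 fold change 0.35), Dhx58 (0.69), Oasl2 (1.30), Bst2 (0.49), Adar (0.33), Ifi44 (1.85) and Xaf1 (0.95), and the class I genes added were B2m (0.33) and H2-K1 (0.37). Without C70 replicate 2, 6 targets were called, and without C70 replicate 4, 1. What set vehicle replicate 1 apart was not tested.

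**Figure D4:**
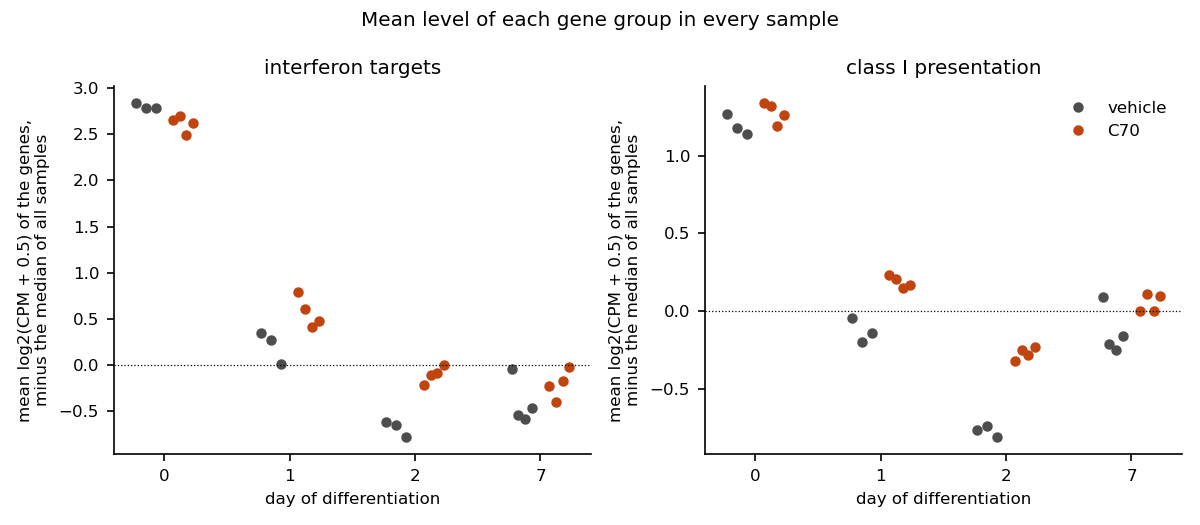
Mean log2(CPM + 0.5) of the 27 interferon targets and of the 8 class I genes in every sample, minus the median of all samples, by day, with vehicle in grey and C70 in red. At day 2 the C70 samples lay between -0.21 and 0 for the interferon targets and the vehicle samples between -0.78 and -0.61, and at day 7 vehicle replicate 1 (-0.04) lay above its group.

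Whether the C70 effect changed between days was tested by interaction contrasts, all 3 of which share the day 0 samples. Between days 0 and 1 the effect moved upward in 17 interferon targets and downward in 1, Ifi27, beside 8.68% and 5.23% of all genes. The upward count was 14 with DESeq2, 12 with limma and 9 with quantile normalization. By day 2 it had moved upward in 18 and downward in 1, again Ifi27, beside 14.9% and 11.7%. By day 7 it had moved upward in 8 and downward in 1, beside 14% and 7.96%. Without day 1 vehicle replicate 3, 11 rather than 18 targets were called in the first contrast, and without day 7 vehicle replicate 1, 17 rather than 9 in the last. For 5 of the 6 targets that were lower at day 0 and higher at day 2, the shift at day 2 was 1.03 ± 0.124 in Stat2 (adjusted P = 1.01e-07), 2.39 ± 0.386 in Ifit2 (1.05e-05), 1.90 ± 0.487 in Oasl2 (0.00266), 1.42 ± 0.393 in Isg15 (0.00494) and 0.79 ± 0.0747 in Parp12 (1.11e-09). In Gbp2, the remaining target, the C70 fold change at day 2 was 2.38 times that at day 0 (9.02e-05). These 6 targets were chosen by opposite calls on the same samples. The upward direction of their shifts was fixed by that choice, and their P values are not a separate test. The shift of Ifi44 was 3.40 ± 0.257 (1.09e-11). Ifi27, the only target higher at day 0, moved by -0.57 ± 0.155 (0.00434).

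Among class I genes the effect moved upward between days 0 and 1 in 2, H2-K1 (0.52, adjusted P = 0.0021) and B2m (0.44, 0.00197), and downward in 0 by edgeR, DESeq2, limma or at an unadjusted P under 0.05. Without day 1 vehicle replicate 1, Tap1 (0.49) and Tap2 (0.40) were also called. By day 2 it had moved upward in 6 and downward in 0, with log2 shifts of 0.69 in B2m, 0.68 in Tap1, 0.65 in H2-K1, 0.60 in H2-D1, 0.42 in Tap2 and 0.36 in Psmb10. Psmb10 had adjusted P = 0.0418, and its call was lost when C70 replicate 2, 3 or 4 or vehicle replicate 1 or 2 of day 0, or C70 replicate 2 or 3 or vehicle replicate 1 or 3 of day 2, was left out, at shifts of 0.29 to 0.37, and with limma (adjusted P = 0.0654) or quantile normalization (0.075). Between days 0 and 7 no class I shift was called by edgeR, with 2 upward and 1 downward at an unadjusted P under 0.05. DESeq2 called 1 and limma 0 of them. Leaving out day 7 vehicle replicate 1 brought in both Tap1 (0.47) and Tap2 (0.43). Tap1 was also called without C70 replicate 2 of day 0, C70 replicate 2 or vehicle replicate 1 or 2 of day 1, C70 replicate 1 or 4 of day 2 or C70 replicate 1 of day 7, at shifts of 0.40 to 0.49. Tap2 was called without C70 replicate 4 or vehicle replicate 2 of day 0, C70 replicate 1 of day 1 or C70 replicate 2 or 3 of day 7, at shifts of 0.32 to 0.38.

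Set side by side, the interferon targets and the class I genes gave these counts. At day 0 the targets had 7 calls lower and the class I genes 0, with medians of -0.15 and 0.14. Over all genes 3.09% were called lower on that day. At days 1 and 2 the calls of both were upward (apart from those of Samhd1 at day 1 and Irf7 at day 2 under quantile normalization, of Samhd1 without day 1 vehicle replicate 1 or 2, and of Samhd1 and Irf1 at day 1 by adjusted P alone), 13 and 18 of 27 targets and 4 and 4 of 8 class I genes. The shares over all genes at days 1 and 2 were 13.6% and 16.9% higher and 7.8% and 13.6% lower. The class I values at day 2 spanned 0.06 to 0.86, and those of the targets -0.24 to 3.25. All 4 class I genes with a call (B2m, H2-D1, H2-K1 and Tap1) were called at both day 1 and day 2, as were 11 of the 21 targets with a call on 1 or more days. The remaining class I genes, Psmb8, Psmb10, Tap2 and Tapbp, were called on no day by the rule used here with all libraries and no block. No test was made of one group of genes against the other.

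Promoter windows from RefSeq (GRCm38.p6, 250 bases before to 50 bases after a start site) were found for 21 of the 27 interferon targets and 7 of the 8 class I genes. They were searched on both strands for 2 strings of 9 letters. GAAANNGAA is of the kind bound by interferon regulatory factors, and TTCNNNGAA of the kind bound by STAT dimers. The first occurred in 8.56% of all 32851 windows and in at least 1 window of 9.76% of the 27025 genes that had any. It was found in 11 of the 21 targets (52.4%) and in 1 of the 7 class I genes, B2m. The second, which reads the same on both strands, occurred in 8.3% of windows and 9.55% of genes, in 7 of the 21 targets and in 1 of the 7 class I genes, Psmb8. The strings were counted separately, and matches of one string may overlap each other or the other string. A match describes letters only and is not a binding site.

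The stretches printed are for some of the targets called higher with C70 on 2 or more days. Isg15 (added after its values were seen) and a pair of class I genes are also shown. Of these genes, Gbp2, Stat2, Ifit2 and Isg15 had been called lower with C70 at day 0. Each stretch runs 5′ to 3′ on the strand of its gene, and capitals mark GAAANNGAA or its reverse complement.
Gbp2 (chr3:142620590-142620628, + strand): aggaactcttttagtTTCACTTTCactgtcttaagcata
Ifih1 (chr2:62646344-62646382, - strand): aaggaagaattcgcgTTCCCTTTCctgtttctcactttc
Stat2 (chr10:128270262-128270300, + strand): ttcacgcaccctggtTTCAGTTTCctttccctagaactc
Isg15 (chr4:156200861-156200899, - strand): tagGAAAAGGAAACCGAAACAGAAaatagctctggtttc
B2m (chr2:122147533-122147571, + strand): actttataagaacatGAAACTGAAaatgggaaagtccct
Ifit2 (chr19:34550655-34550693, + strand): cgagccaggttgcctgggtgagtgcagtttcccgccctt
H2-K1 (chr17:34000348-34000386, - strand): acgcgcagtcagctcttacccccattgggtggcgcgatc
In Isg15 there were 3 overlapping matches, and 1 in each of Gbp2, Ifih1, Stat2 and B2m within the bases shown. Ifit2, called higher on 3 days, and H2-K1, called on 2, had no match to GAAANNGAA in their windows, and the 39 bases before the start site of the first window are shown for them. Ifit2 had a match to TTCNNNGAA. No match says only that these letters are not in the window. Ifit1, with 3 matches, was called higher on no day. Other targets called higher on 2 days had windows but are not printed. Of these, Adar and Ifi44 had a match to GAAANNGAA, and Irf9 and Oasl2 had none.

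Other genes of the pathway were counted from lists of related genes. Of 28 other interferon-induced genes in the table, 2 were called higher and 5 lower with C70 at day 0, beside 5.89% and 3.09% over all genes. The called genes numbered 12 higher and 1 lower a day later, 15 higher and 3 lower at day 2, and by day 7 10 higher and 2 lower. Over all genes 13.6%, 16.9% and 14.3% were called higher on those days and 7.8%, 13.6% and 4.85% lower. Oas2, another oligoadenylate synthetase, was higher on all 4 days, with log2 fold changes of 0.50, 2.69, 4.35 and 1.43. Its day 2 value rests on 2 to 4 reads in each vehicle library and 49 to 76 in each C70 library. Mndal (0.21, 1.15, 1.83 and 1.48) and Lgals9 (0.01, 1.01, 1.59 and 0.54), which encodes galectin-9, were called at days 1, 2 and 7. Named after their values were seen, the lower genes at day 0 were the immunity-related GTPases Irgm1, Irgm2 and Igtp with Gbp7 and Herc6.

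Upstream of the targets, 1 of 13 receptor and JAK-STAT genes was called higher at day 0, and 4, 3 and 2 at days 1, 2 and 7, with 2 lower at day 2, beside 5.89%, 13.6%, 16.9% and 14.3% called higher over all genes. The share called lower over all genes at day 2 was 13.6%. Socs1, a feedback inhibitor of the JAK kinases and itself interferon-induced, had log2 fold changes of -0.25, 0.91, 1.38 and 0.97 at days 0, 1, 2 and 7, the last 3 called. Socs3 was called on the same days (0.56, 0.89 and 0.77), and Irf2 at days 1 and 2 (0.33 and 0.49). The receptor chain Ifnar1 was not called on any day, at 0.09, 0.15, 0.00 and 0.24.

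Of 9 nucleic acid sensing adaptors in the table, Tmem173, the adaptor that relays cytosolic DNA sensing, and the kinase gene Ikbke were called higher at days 1, 2 and 7. Over all genes 13.6%, 16.9% and 14.3% were called higher on those days. Tmem173 had log2 fold changes of 0.04, 0.63, 1.51 and 0.82 over the 4 days, and Ikbke of -0.04, 0.32, 0.81 and 0.87. Mavs, the adaptor of the RNA sensors, and Irf3 were not called, at -0.20 to 0.11 and -0.18 to 0.17. Of 14 other class I pathway genes, 1 was called higher and 2 lower at day 0, 2 and 1 on the next day, 5 and 2 at day 2, and 4 and 1 by day 7. The shares over all genes were 5.89% and 3.09%, 13.6% and 7.8%, 16.9% and 13.6%, and 14.3% and 4.85%. Their medians lay between -0.04 and 0.16. Psme2, a subunit of the proteasome activator, named after its values were seen, was lower at days 1, 2 and 7 (-0.51, -0.54 and -0.34). Nlrc5, the transactivator of class I genes, was higher at days 1, 2 and 7 (0.85, 0.92 and 0.39, after 0.14 at day 0), and H2-Q4 on all 4 days (0.45, 1.00, 0.97 and 0.39). H2-T22, a nonclassical class I gene, was lower at day 0 (-0.33), not called at day 1 (0.32) and higher at days 2 and 7 (0.76 and 0.34). The 3 constitutive counterparts of the immunoproteasome subunits, Psmb5, Psmb6 and Psmb7, were called on no day.

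Markers of the state of the cells also differed between treatments on some days. At day 1 the preadipocyte sums overlapped (4879 to 5333 CPM with vehicle and 4708 to 5291 CPM with C70), although 5 of the 7 markers were called higher and 1, Col1a1, lower. The adipocyte sums at day 1 were 5193 to 5442 CPM with vehicle and 3249 to 3372 CPM with C70, and 8 of the 9 markers were called lower. At day 2 the preadipocyte and fibroblast markers summed to between 1580 and 1627 CPM in vehicle and between 2479.8 and 2705 CPM in C70 samples, and 6 of the 7 were called higher. The adipocyte markers summed to between 20387 and 21249 CPM with vehicle and between 11925 and 13081 CPM with C70, and 8 of the 9 were called lower. At day 0 the preadipocyte sums overlapped, at 14388 to 15108 CPM with vehicle and 14202 to 15595 CPM with C70, and 3 of the 7 markers were called higher and 0 lower. The adipocyte sums at day 0 were 1291 to 1412 CPM with vehicle and 1472 to 1526 CPM with C70, with Cebpa called higher and Fabp4 and Pparg lower. At day 7 the preadipocyte sums again differed (999 to 1437 CPM with vehicle against 2553 to 2969 CPM with C70), and 6 of the 7 markers were called higher. The adipocyte sums at day 7 overlapped, at 24768 to 29418 CPM with vehicle and 27195 to 30013 CPM with C70. Of the 9 adipocyte markers, 2 were then called higher (Adipoq and Cd36) and 0 lower. The summed macrophage markers read 7.81 to 8.91 CPM with vehicle and 25.7 to 26.8 CPM with C70 at day 0, 4.09 to 4.88 and 17.3 to 20.2 CPM at day 1, 3.07 to 4.14 and 9.02 to 10.1 CPM at day 2, and overlapped at day 7. Cd68 accounted for most of this, with log2 fold changes of 3.85, 2.90, 2.06 and -0.31. The part of these markers in the results of the members was not tested.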

How the data were processed

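Strand-specific RNA libraries of 29 3T3-L1 samples were sequenced by the authors, who aligned the reads to the mouse genome with STAR 2.7.2a (GRCm38). The counts were used as deposited, whole numbers for 11959 genes that had passed a filter of the authors not given in the sources used here; the table is labelled as normalized but holds unscaled counts. The submitters' processing notes name edgeR 3.26.8. Symbols, positions and exon lengths came from the GENCODE annotation of GRCm38, and promoter sequences from RefSeq (GRCm38.p6).

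All 8 groups were fitted together with edgeR 4.0.16 (quasi-likelihood F-test, TMM factors) in R 4.3.3. P values were adjusted by Benjamini-Hochberg over all genes, and a gene was called at an adjusted P under 0.05 and a fold change over 1.25. Differences of the C70 effect between days were tested as interaction contrasts. On simulated counts for day 2, 96% of 200 genes changed 2-fold were recovered and 1.03% of calls were false. Smaller changes, such as those of most members at day 2, were not simulated, so their recovery is not known. DESeq2 1.42.0 and limma 3.58.1 (limma-trend on log2 CPM with a prior count of 2, also after quantile normalization) served as alternatives, beside other size factors, filters and thresholds, a replicate block, a separate fit for each day and leaving out each library. Summaries and figures were made with pandas 2.3.3 and matplotlib 3.10.9.

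The members, lists and tests were chosen with earlier results of these data known. Every member was named; values of every sample were given for the 2 called members of each direction and gene group that differed most at each day, and, at every day, for Isg15, Irf7, Stat2, B2m, H2-K1, Tap1 and Psmb8. From the other lists, Ifnar1, Tmem173, Mavs, Nlrc5 and Irf3 were named, with the 3 genes per list that differed most among those called on 2 or more days. One further gene of these lists is not reported here.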

Additional observations from a re-analysis of the deposited data

Results flagged for a closer look

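In 13 of 175 groups of 4 samples tested, 1 sample lay far from the other 3 (8.75 would be so by chance). In day 7 vehicle replicate 1, Irf9 stood at 13.4 CPM against 9.64 to 10 CPM in the other samples, Ifit1 at 4.89 against 0.637 to 1.15 CPM, Isg15 at 2.09 against 0.564 to 0.658 CPM and Ifi27 at 208 against 133 to 146 CPM. In day 7 C70 replicate 4, Ifih1 stood at 5.12 against 5.84 to 5.92 CPM, Irf7 at 12 against 9.49 to 9.82 CPM and Rtp4 at 2.48 against 1.77 to 1.88 CPM. In day 7 vehicle replicate 4, Parp12 stood at 41.2 against 37.2 to 37.7 CPM. In day 7 C70 replicate 3, Psmb8 stood at 1.13 against 1.88 to 1.95 CPM. Ifit1 in day 1 C70 replicate 1 stood at 10.2 against 3.46 to 4.43 CPM, and Psmb10 in day 1 C70 replicate 2 at 9.65 against 11.8 to 11.9 CPM. In day 2 C70 replicate 3, Samhd1 stood at 204 against 219 to 219.7 CPM and Tapbp at 165 against 168 CPM.

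The C70 effect differed between day 0 and a later day, by the interaction contrast of edgeR's quasi-likelihood test, in 54 combinations of member and day. The values are differences of log2 fold changes, later day minus day 0. Between days 0 and 1 they were 0.49 for Ifih1, 0.71 for Dhx58, 0.66 for Irf7, 0.54 for Irf9, 0.88 for Stat2, 1.20 for Ifit1, 1.82 for Ifit2, 1.07 for Oasl2, 0.40 for Bst2, 0.36 for Adar, 1.30 for Gbp2, 0.80 for Isg15, 0.88 for Usp18, 0.35 for Trim25, 0.42 for Parp12, 2.17 for Ifi44, -0.53 for Ifi27, 1.10 for Rtp4, 0.44 for B2m and 0.52 for H2-K1. Between days 0 and 2 they were 0.61 for Ddx58, 0.55 for Ifih1, 1.31 for Dhx58, 0.57 for Irf9, 1.03 for Stat2, 2.39 for Ifit2, 1.90 for Oasl2, 1.12 for Bst2, 0.46 for Adar, 1.3 for Gbp2 (given to 1 decimal, a ratio of 2.38 between the fold changes), 1.42 for Isg15, 0.51 for Trim25, 0.79 for Parp12, 0.82 for Parp14, 0.36 for Dtx3l, 3.40 for Ifi44, -0.57 for Ifi27, 2.03 for Rtp4, 2.07 for Xaf1, 0.36 for Psmb10, 0.68 for Tap1, 0.42 for Tap2, 0.69 for B2m, 0.65 for H2-K1 and 0.60 for H2-D1. Between days 0 and 7 they were 0.38 for Ddx58, 0.54 for Stat2, 1.53 for Ifit2, 1.23 for Oasl2, 0.43 for Bst2, 0.96 for Gbp2, 0.55 for Parp12, 0.40 for Dtx3l and -0.93 for Ifi27.

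Several of these differences lost their call when a library was left out. At day 1, leaving out vehicle replicate 3 of that day ended those of Irf7, Ifit1, Bst2, Adar, Isg15, Usp18 and Trim25, C70 replicate 1 those of Irf7, Ifit1 (0.73), Bst2, Isg15 and Usp18 (0.56), vehicle replicate 2 those of Bst2, Isg15 and Usp18, C70 replicate 2 those of Adar and Isg15, vehicle replicate 1 that of Ifit1 and C70 replicate 4 that of Bst2. Leaving out C70 replicate 3 or vehicle replicate 1 of day 0 ended the day 1 calls of Ifit1, Bst2 and Isg15, and C70 replicate 1 or vehicle replicate 2 of day 0 that of Ifit1. DESeq2 did not call Ifit1 (adjusted P = 0.302), Oasl2 (0.084) or Isg15 (0.0929) at day 1, limma-trend did not call these, Dhx58 (0.0516) or Bst2 (0.0896), and quantile normalization ended the calls of Ifih1, Dhx58, Irf7, Ifit1, Oasl2, Isg15, Usp18 and Rtp4.

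At day 2 the call of Dtx3l was lost without C70 replicate 1 or 3 or vehicle replicate 1 or 2 of day 0, or C70 replicate 3 or vehicle replicate 3 of day 2, at 0.28 to 0.35, and that of Psmb10 without 9 libraries, at 0.29 to 0.37. At day 7 Ddx58 was lost without any of C70 replicate 3 and vehicle replicates 1, 2 and 3 of day 0, and C70 replicates 1, 3 and 4 and vehicle replicates 2 and 3 of day 7, at 0.31 to 0.39, and with limma-trend (0.0534) or quantile normalization (0.107). Bst2 at day 7 was lost without C70 replicate 3 or vehicle replicate 1 of day 0, or C70 replicate 1 or vehicle replicate 2 or 3 of day 7, at 0.32 to 0.40. Oasl2 at day 7 was lost without C70 replicate 4 (1.07) or vehicle replicate 3 (0.99) of that day and with quantile normalization (1.02), and Dtx3l without C70 replicate 3 of day 7 (0.33).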

How the results depend on the processing

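Of 8155 values of called members recomputed under 11 alternatives and without each of 29 libraries, 7973 kept their direction and their side of the threshold, 182 lost the call and 0 changed sign. Calls gained are not counted in this total. Many values had little room to change, since adjusted P alone can only keep a call and most libraries left out lay outside the comparison. The large vehicle changes between days are included too. For C70 against vehicle at day 0, the 11 alternatives kept 72 called values and lost 16. The count of interferon targets called at day 0 (8) was 5 with DESeq2 or limma-trend, 3 with quantile normalization and 3 at a fold change over 1.5. At day 7 (2) it was 4 with DESeq2, 5 with limma-trend, 0 with quantile normalization, 9 by adjusted P alone (8 higher and 1 lower) and 1 at a fold change over 1.5. For class I genes the count at day 0 (0) was 2 by adjusted P alone, at day 1 (4) it was 2 at a fold change over 1.5, and at day 7 (2) it was 5 and 0 by these rules. Over all 11959 genes, adjusted P alone marked 1300 higher and 1066 lower at day 0, and 2667 higher and 2252 lower at day 7. Shifts of the C70 effect in the targets numbered 18 at day 1, with 11 at a fold change over 1.5 and 10 with quantile normalization, and 9 at day 7, with 4 at a fold change over 1.5. In class I genes the 2 shifts at day 1 became 0 at a fold change over 1.5, and the 0 at day 7 became 1 with DESeq2 or RLE size factors and 2 by adjusted P alone, with upper-quartile factors, or without the 25% of genes of lowest mean CPM. By adjusted P alone, the 2 class I shifts at day 7 were 1 upward and 1 downward, beside 2136 and 1669 of 11959 genes. The causes were not tested.

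With each library left out in turn, the targets called numbered 6 to 8 at day 0, 7 to 16 at day 1 and 1 to 9 at day 7, and the class I genes 0 to 1 at day 0 and 2 to 4 at day 7. The shifts numbered 11 to 19 at day 1 and 6 to 17 at day 7 in the targets, and 2 to 4 at day 1 and 0 to 2 at day 7 in class I genes. The main fit did not pair samples by replicate number. The deviations of 13 same-numbered pairs of vehicle and C70 samples correlated at -0.205 to 0.214, and 2 were over 0.1. So few pairs, with deviations taken within small groups, cannot exclude a pairing. With the replicate block the class I shifts called at day 7 were 2. The block also called Psmb8 higher with C70 at day 1 (log2 fold change 0.47, adjusted P = 0.0217) and day 2 (0.51, 0.0492), and ended the call of the Psmb10 shift at day 2 (0.0552).

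Genes such as Ifit2 and Xaf1 had fewer than 10 reads in each vehicle library at day 2, so their fold changes are imprecise. Day 7 vehicle replicate 1 limits the day 7 results. Removing the 25% of genes of lowest mean CPM removes Psmb8 and Xaf1.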
